A study of Sus scrofa with 19 samples.

Results

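The bacterial family *Lachnospiraceae* was followed in boar feces together with the genera and the species below it in the deposited tables of 16S rRNA gene sequences, the gene most used to name bacteria by their sequence. Its members were 5 rows taken by name: the family itself, the genera *Clostridium_XlVa*, *Coprococcus* and *Blautia*, and the species *Coprococcus_comes*. They were 5 of 87 taxa in 6 tables, of which 15 were families, 19 genera and 14 species. The tables do not pair genera with families, so the placement of the 3 genera in *Lachnospiraceae* rests on general taxonomy. In 19 of 19 boars the 3 genera together did not exceed the family, and in 19 of 19 boars *Coprococcus_comes* did not exceed *Coprococcus*. Genera of other families could also have stayed below the family, so these counts do not test the placement.

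The fresh feces came from Duroc boars. AOS10 boars (n = 10) ate a basal diet plus alginate oligosaccharides (short chains cut from the seaweed polysaccharide alginate) at 10 mg/kg body weight for 9 weeks, and CON boars (n = 9) ate the basal diet alone. The comparison addressed whether the supplement changed the intestinal bacteria, and 1 sample per boar was analysed, with no CON boar numbered 6. The methods put the boars at about 24 months, whereas the sample labels give AOS10 boars 24 to 33 months and CON boars 34 to 42 months, rising by 1 month from sample to sample, so that by the labels age and diet cannot be told apart.

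*Lachnospiraceae* are strictly anaerobic Firmicutes of the order *Clostridiales* and, beside *Ruminococcaceae*, one of the leading families of the mammalian large intestine. They ferment dietary fibre, starch and mucus sugars, and many of them release butyrate, the main fuel of the cells that line the colon. Within the family the work is divided: *Coprococcus* includes butyrate producers, *Blautia* is known for forming acetate, also from hydrogen and carbon dioxide, and *Clostridium_XlVa* gathers species still named *Clostridium* whose 16S sequences fall among the *Lachnospiraceae*.

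All values are relative abundances, in percent of all sequences of a boar unless another whole is named, so a higher value can reflect more of a taxon or less of the others. The tables state no number of sequences per boar, and depth is taken as unknown. In AOS10 boar 3 the genus *Murdochiella*, an anaerobic coccus, held 54.4% of the sequences, which lowered every other share of that boar. In AOS10 boar 7 *Enterobacteriaceae* held 16.2%, against 0.266% to 6.98% in CON boars. The phylum *Bacteroidetes* held 33.4% in CON boar 2 and 18.3% in CON boar 7. Their part in the results was not tested beyond the comparisons without *Murdochiella* and without single boars given here and in the closing section.

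*Lachnospiraceae* was the second largest listed family, with a mean of 18.2% over the 19 boars, below *Ruminococcaceae* at 28.2% and above *Streptococcaceae* at 7.47%. In AOS10 boars it held 4.23% at the lowest, 19.9% at the median and 38.5% at the highest, against 11.0%, 15.7% and 22.0% in CON boars. The AOS10 boars lay on both sides of the CON boars: 4 of 10 (boars 5, 6, 9 and 10) were above every CON boar, 2 of 10 (boars 3 and 7) were below every CON boar, and the other 4 were between. AOS10 boars averaged 20.3% ± 10.2 (SD, n = 10) and CON boars 15.8% ± 3.51 (SD, n = 9), a ratio of 1.28, which did not pass an exact permutation test of the means (p = 0.234, adjusted p = 0.448 over the 15 families by Benjamini-Hochberg). No family passed this test (0.00% of 15 tested, at an adjusted and at an unadjusted p under 0.05).

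**Figure D1:**
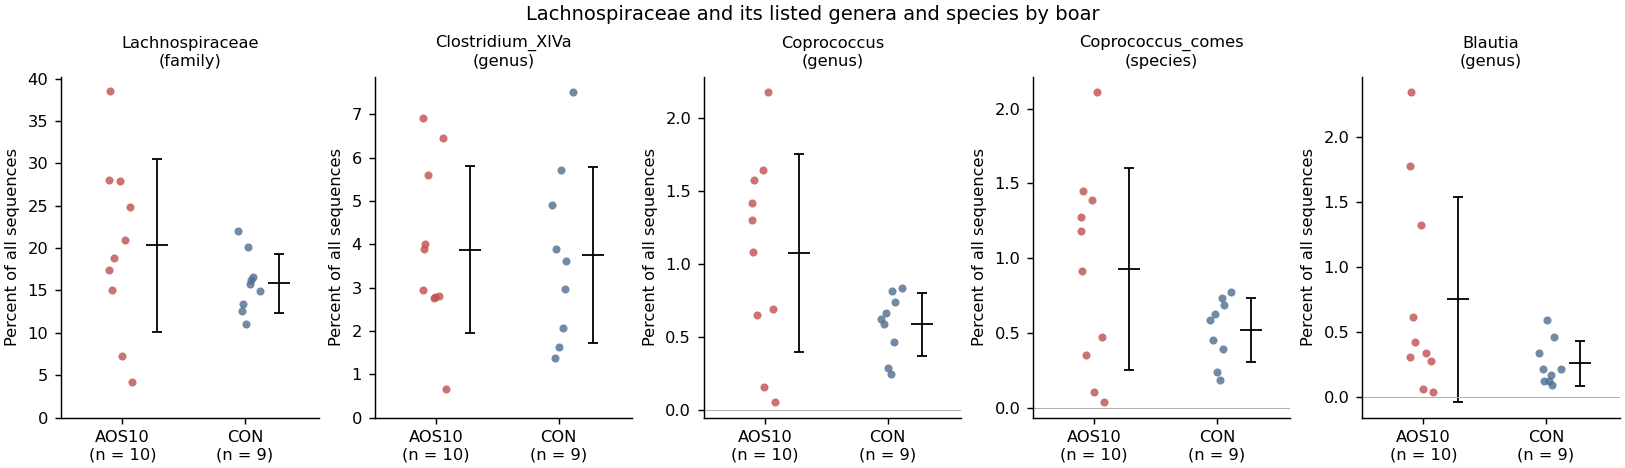
Relative abundance (percent of all sequences, linear axes) of the family, the 3 genera and the species in each AOS10 boar (red, left, n = 10) and each CON boar (blue, right, n = 9), with the group mean and SD as a black bar. AOS10 boars spread from 4.23% to 38.5% for *Lachnospiraceae*, against 11.0% to 22.0% in CON boars, and 4 of the 5 panels show a wider AOS10 group.

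With *Murdochiella* left out of the denominator, AOS10 boar 3 held 9.27% *Lachnospiraceae* and was still below the lowest CON boar. The group means were then 20.8% ± 9.41 (SD, n = 10) for AOS10 and 15.8% for CON boars (exact permutation p = 0.156). Within the order *Clostridiales* alone, the family made up 5.32% to 52.8% of the sequences in AOS10 boars (median 31.8%) and 18.9% to 33.5% in CON boars (median 22.5%). This share of the order was above every CON boar in 5 of 10 AOS10 boars and below every CON boar in 2 (exact permutation test of the means, p = 0.264). The order still included the *Murdochiella* of boar 3, 54.4% of its sequences beside 79.5% for the whole order. Boar 3 gave the 5.32%, and the next lowest AOS10 boar was boar 7 with 11.3%.

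*Ruminococcaceae*, the other main fibre-fermenting family, was the reference point within each boar. *Lachnospiraceae* was the largest listed family in 2 of 10 AOS10 boars, the second in 5 and the third in 3, whereas in CON it was the second in 6 of 9 boars and the third in 3. The 2 AOS10 boars in which it led were boars 5 and 10, with 28.1% *Lachnospiraceae* beside 16.1% *Ruminococcaceae* and 38.5% beside 27.1%. *Ruminococcaceae* exceeded *Lachnospiraceae* in 8 of 10 AOS10 boars (mean difference 5.39 percentage points, exact sign-flip p = 0.156) and in 9 of 9 CON boars (mean difference 15.1 percentage points, exact sign-flip p = 0.00391, the smallest p that 9 boars allow). The ratio of *Lachnospiraceae* to *Ruminococcaceae* ran from 0.272 to 1.75 in AOS10 (median 0.752) and from 0.396 to 0.921 in CON (median 0.453), and its means of 0.820 ± 0.463 for AOS10 (SD, n = 10) and 0.528 ± 0.167 for CON boars (SD, n = 9) differed by 0.292 (exact permutation p = 0.0901). This ratio was chosen after its values were seen. Without any 1 boar its exact permutation p ran from 0.0317 to 0.161. It was under 0.05 in 2 of 19 such runs, at 0.0317 without AOS10 boar 7 and 0.0473 without CON boar 4.

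**Figure D2:**
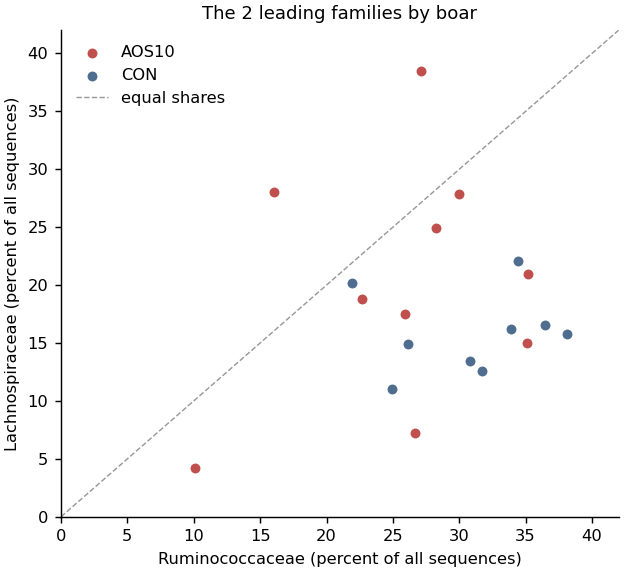
*Lachnospiraceae* (vertical axis) against *Ruminococcaceae* (horizontal axis), both in percent of all sequences, 1 point per boar, AOS10 in red and CON in blue, with a dashed line of equal shares. The points above the line are AOS10 boars 5 and 10, and all 9 CON boars lie below it.

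*Clostridium_XlVa* was the most abundant of the 3 genera in 10 of 10 AOS10 boars and in 9 of 9 CON boars. Its share was 0.650% at the lowest, 3.41% at the median and 6.91% at the highest in AOS10 boars, against 1.38%, 3.61% and 7.53% in CON boars. The groups overlapped almost wholly, with no AOS10 boar above the highest CON boar and 1 (boar 3) below the lowest. With *Murdochiella* left out of the denominator, boar 3 held 1.42% and lay within the CON range. AOS10 boars averaged 3.88% ± 1.94 (SD, n = 10) and CON boars 3.75% ± 2.03 (SD, n = 9; ratio 1.03, exact permutation p = 0.886, adjusted p = 0.947 over 18 genera), and the difference in medians had the opposite sign, at -0.202 percentage points. Of the 18 genera tested, 0.00% passed at an adjusted p and 5.56% at an unadjusted p under 0.05.

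*Coprococcus*, the genus with butyrate producers, held 0.0519% to 2.18% in AOS10 boars (median 1.19%) and 0.245% to 0.837% in CON boars (median 0.619%). AOS10 boars 1, 4, 5, 6, 8 and 10 were above every CON boar, boars 3 and 7 were below every CON boar, and boars 2 and 9 lay within the CON range. Between the lowest and the highest boar the genus differed 42.0-fold in AOS10 and 3.42-fold in CON. The ratio of the means, AOS10 over CON, was 1.84, and it did not pass the test over the genus table (adjusted p = 0.447 from the exact permutation test).

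*Coprococcus_comes*, a species first isolated from human feces, was the member listed below *Coprococcus*. It held 0.0394% at the lowest, 1.05% at the median and 2.11% at the highest in AOS10 boars, against 0.185%, 0.589% and 0.777% in CON boars. The same 6 AOS10 boars as for the genus were above every CON boar and the same 2 were below. It averaged 0.929% ± 0.673 in AOS10 boars (SD, n = 10) and 0.521% ± 0.215 in CON boars (SD, n = 9; ratio 1.78, exact permutation p = 0.0993, adjusted p = 0.441 over 13 species). No species passed (0.00% of 13 tested, at an adjusted and at an unadjusted p under 0.05).

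The species made up most of its genus in every boar: 54.4% to 96.9% of *Coprococcus* in AOS10 boars (median 84.8%) and 75.7% to 95.0% in CON boars (median 90.3%). It exceeded 80% of the genus in 6 of 10 AOS10 boars and in 7 of 9 CON boars. The lowest shares were those of AOS10 boars 2 (54.4%), 7 (68.1%) and 9 (68.2%), each below the lowest CON boar. The means were 80.6% ± 13.5 in AOS10 boars (SD, n = 10) and 87.4% ± 7.41 in CON boars (SD, n = 9). Their difference did not pass the exact permutation test (p = 0.199).

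The remainder, *Coprococcus* sequences not assigned to *Coprococcus_comes*, had a higher mean in AOS10 before any adjustment. It ran from 0.0125% to 0.295% in AOS10 boars (median 0.135%) and from 0.0309% to 0.134% in CON boars (median 0.0595%). AOS10 boars 2, 6, 9, 10 and 5 held more of it than any CON boar, with 0.295%, 0.251%, 0.220%, 0.163% and 0.143%. The mean was 0.145% ± 0.0903 among AOS10 boars (SD, n = 10) and 0.0632% ± 0.0307 among CON boars (SD, n = 9), a ratio of 2.29 (exact permutation p = 0.0191, unadjusted). This remainder was examined after its values were seen and has no adjusted p, since it is a row of no table. On the log2 scale the exact permutation p was 0.0553.

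**Figure D3:**
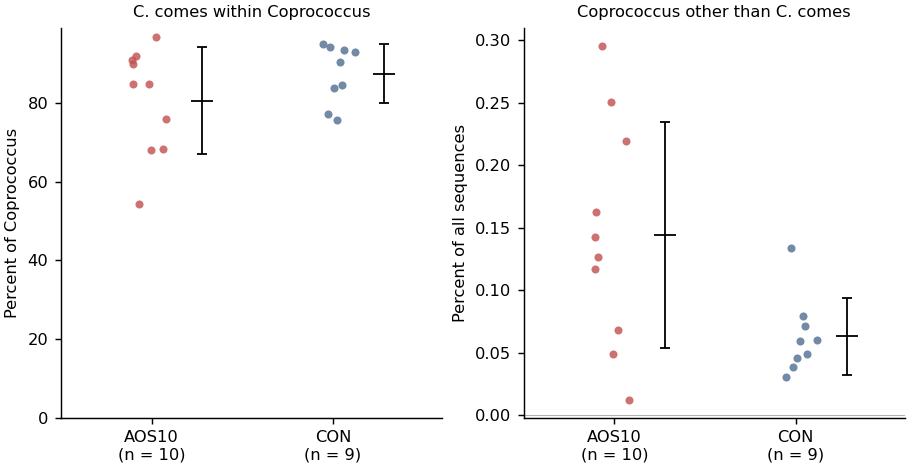
Left, *Coprococcus_comes* in percent of *Coprococcus*; right, the rest of *Coprococcus* in percent of all sequences, for each AOS10 boar (red, n = 10) and each CON boar (blue, n = 9), with the group mean and SD as a black bar. Of the AOS10 boars, 3 lie below the CON range on the left and 5 lie above it on the right.

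*Blautia*, the acetate-forming genus, was the least abundant of the 3 in most boars. It held 0.0436% at the lowest, 0.383% at the median and 2.34% at the highest in AOS10 boars, against 0.0925%, 0.218% and 0.595% in CON boars. The AOS10 values were skewed: boars 10, 5 and 6 held 2.34%, 1.78% and 1.32%, boar 8 with 0.615% was just above the highest CON boar, and the lowest 2 (boars 3 and 7) were below every CON boar. With *Murdochiella* left out of the denominator, boar 3 held 0.0955% and lay within the CON range. AOS10 boars averaged 0.753% ± 0.788 (SD, n = 10) and CON boars 0.263% ± 0.171 (SD, n = 9), a ratio of 2.87 that did not pass over the genus table (adjusted p = 0.447 from the exact permutation test). A limma fit of log2(percent + 0.01) gave a log2 difference of 0.89 with a standard error of 0.64 (adjusted p = 0.455).

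The order of the genera by mean share was the same in both groups. *Clostridium_XlVa* exceeded *Coprococcus* by 2.80 percentage points on average in AOS10 (10 of 10 boars, exact sign-flip p = 0.00195) and by 3.16 in CON (9 of 9 boars, exact sign-flip p = 0.00391), in both cases the smallest p the design allows. *Coprococcus* exceeded *Blautia* in 8 of 10 AOS10 boars by a mean of 0.321 percentage points, which did not pass the exact sign-flip test (p = 0.254). In CON it did so in 8 of 9 boars by the same mean of 0.321 percentage points (exact sign-flip p = 0.0195). The exceptions were AOS10 boars 5 and 10, the boars in which the family led, and CON boar 2.

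As parts of the family, the 3 genera together held 29.2% ± 8.91 of *Lachnospiraceae* in AOS10 boars (SD, n = 10) and 28.9% ± 12.1 in CON boars (SD, n = 9). The other 70.8% in AOS10 and 71.1% in CON belonged to no genus listed here (exact permutation p = 0.944), and this unlisted rest was the larger part of the family in 10 of 10 AOS10 boars and in 8 of 9 CON boars. It ran from 58.7% to 82.4% of the family in AOS10 boars and from 42.5% to 82.5% in CON boars. The ranges overlapped almost wholly, with 1 CON boar below all AOS10 boars. The genus table listed 0 of 22 other genera looked for, such as *Roseburia*, *Dorea* and *Anaerostipes*, and the species table listed 0 of 19 other species of the family.

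*Clostridium_XlVa* alone held 9.89% to 38.2% of the family in AOS10 boars (median 20.7%) and 11.0% to 50.4% in CON boars (median 21.8%; exact permutation test of the means, p = 0.673). *Coprococcus* held 1.23% to 10.5% of the family in AOS10 boars (median 4.25%) and 1.21% to 5.61% in CON boars (median 4.48%; exact permutation p = 0.287). *Blautia* held 0.916% to 6.34% in AOS10 boars (median 2.03%) and 0.570% to 5.40% in CON boars (median 1.46%; exact permutation p = 0.183). The makeup thus varied several-fold between boars of either diet, and none of the 6 comparisons of makeup, the species within *Coprococcus* included, passed an unadjusted p of 0.05. The highest AOS10 shares of *Coprococcus* in the family were 10.5% in boar 8 and 10.4% in boar 4, and those of *Blautia* were 6.34% in boar 5 and 6.08% in boar 10.

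**Figure D4:**
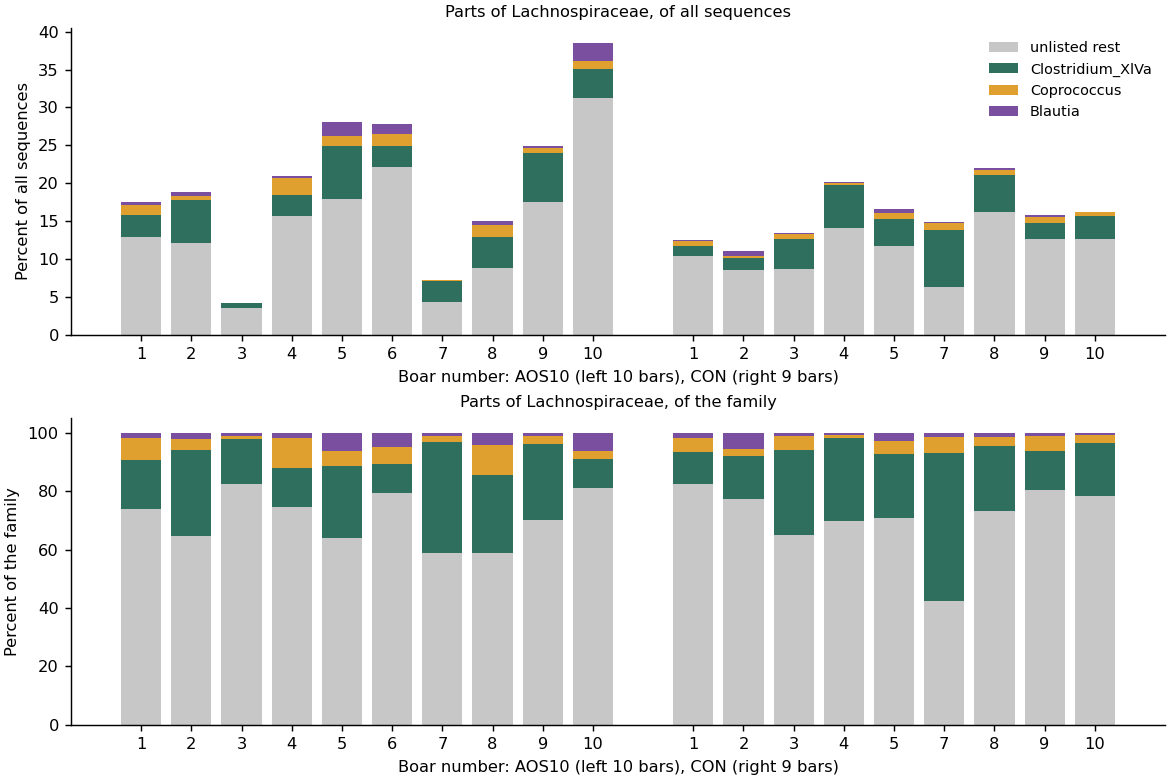
Parts of *Lachnospiraceae* in each boar, AOS10 boars on the left and CON boars on the right, stacked in percent of all sequences (upper panel) and in percent of the family (lower panel). The grey unlisted rest is over 50% of the family in every boar but CON boar 7, where it is 42.5%.

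In percent of all sequences, the unlisted rest held 3.49% at the lowest, 14.3% at the median and 31.2% at the highest in AOS10 boars, against 6.35%, 11.7% and 16.2% in CON boars (ratio of means 1.30, exact permutation p = 0.282). The 31.2% of AOS10 boar 10 stood far above the 16.2% of the highest CON boar in a stretch of the family that has no genus name here. Of all sequences that the genus table left without a listed genus, this rest accounted for 23.8% ± 11.1 in AOS10 boars (SD, n = 10) and 19.1% ± 5.56 in CON boars (SD, n = 9; exact permutation p = 0.267).

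The spread between boars was also compared, which was chosen after the values were seen. The SD was larger in AOS10 for 4 of the 5 members, all but *Clostridium_XlVa*, beside 66.7% of families, 55.6% of genera and 53.8% of species with a larger SD in AOS10. The mean absolute distance from the group median was 7.75 percentage points for AOS10 and 2.56 for CON boars in *Lachnospiraceae* (permutation p = 0.0258, adjusted p = 0.387 over the families). For *Coprococcus* it was 0.549 for AOS10 and 0.164 for CON boars (permutation p = 0.00832, adjusted p = 0.0749 over the genera), and for *Coprococcus_comes* 0.552 for AOS10 and 0.173 for CON boars (permutation p = 0.00870, adjusted p = 0.0566 over the species). For *Blautia* it was 0.544 for AOS10 and 0.122 for CON boars (permutation p = 0.0809), and for *Clostridium_XlVa* 1.49 for AOS10 and 1.55 for CON boars (permutation p = 0.912).

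No member passed after adjustment, beside 0.00% of families, 5.56% of genera and 7.69% of species that did. At an unadjusted p under 0.05 the shares were 6.67%, 16.7% and 15.4%. On the log2 scale none of the 5 members passed an unadjusted p of 0.05, and *Lachnospiraceae* had a permutation p of 0.0504 without AOS10 boar 10. Since 5 of 5 members had the higher mean in AOS10 (beside 46.7% of families, 55.6% of genera and 46.2% of species), and the species is part of its genus and the genera are parts of the family, these counts are not independent of each other.

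Several members were high or low in the same AOS10 boars. Boars 5, 6 and 10 were above every CON boar in *Lachnospiraceae*, *Coprococcus* and *Blautia* alike, and boars 3 and 7 were below every CON boar in all 3. Boar 3 was the one with *Murdochiella* and boar 7 the one with *Enterobacteriaceae*. With *Murdochiella* left out of the denominator, boar 3 held 0.0955% *Blautia*, above the lowest CON boar (0.0925%). In *Lachnospiraceae* and *Coprococcus* boar 3 was then still below every CON boar. Across the AOS10 boars, *Blautia* correlated with the unlisted rest of the family with a Spearman's rho of 0.76 (permutation p = 0.0148, adjusted p = 0.669) and a Pearson's r of 0.84 (permutation p = 0.00154, adjusted p = 0.265). Without the 2 boars farthest from the median of the rest (boars 3 and 10), r was 0.63 (exact permutation p = 0.0967) and rho 0.52 (exact permutation p = 0.197). Without any 1 boar rho was 0.67 to 0.83, and its exact permutation p was 0.0503 without boar 5 or 6 and 0.0589 without boar 3, 7 or 10. As shares of the family, *Blautia* and the rest had a rho of 0.05 (permutation p = 0.891).

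The other relations in AOS10 were weaker: rho was 0.58 between *Coprococcus* and *Blautia* (r = 0.36), 0.53 between *Coprococcus* and the rest (r = 0.47), 0.42 between *Blautia* and *Clostridium_XlVa* (r = 0.33), and 0.33 between *Clostridium_XlVa* and the rest (r = 0.36). *Coprococcus* and *Clostridium_XlVa* had the lowest rho of the 7 relations, 0.10 (r = 0.14), next to *Coprococcus_comes* and the rest of its genus with 0.15 (r = 0.03). In all, 7 of 7 relations had a rho above 0, beside 68.6% of the 172 relations computed in AOS10, and 1 of 7 had an unadjusted p under 0.05, beside 6.40%. Pearson's r was above 0 in 7 of 7, beside 54.1%, and had an unadjusted p under 0.05 in 1 of 7, beside 5.81%. None passed after adjustment (0.00% of 172, by either coefficient). Without boars 3 and 7, the farthest from the median of *Coprococcus*, r between *Coprococcus* and *Blautia* was 0.02. Without boars 3 and 10, r between *Coprococcus* and the rest was 0.52.

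On log2(percent + 0.01), where the low values of boars 3 and 7 carry more weight, r in AOS10 was 0.89 between *Blautia* and the rest, 0.81 between *Coprococcus* and the rest and 0.80 between *Coprococcus* and *Blautia* (permutation p = 0.00119, 0.00998 and 0.00607; adjusted p = 0.205, 0.301 and 0.301), and the other 4 lay between 0.61 and 0.65.

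In the 9 CON boars the unlisted rest had negative coefficients with *Blautia* (rho = -0.32, r = -0.14) and with *Coprococcus* (rho = -0.35, r = -0.22), and a rho of 0.13 with *Clostridium_XlVa* (r = -0.06). Among the genera, rho was 0.13 between *Coprococcus* and *Blautia* (r = -0.14), 0.23 between *Coprococcus* and *Clostridium_XlVa* (r = 0.19) and -0.28 between *Blautia* and *Clostridium_XlVa* (r = -0.26). *Coprococcus_comes* and the rest of its genus had a rho of 0.10 (r = -0.08). A rho above 0 was found in 4 of 7 relations, beside 51.2% of the 172 computed in CON, and 0 of 7 had an unadjusted p under 0.05 by exact permutation, beside 7.56%, with 0.00% after adjustment. Pearson's r was above 0 in 1 of 7, beside 41.9%, and passed an unadjusted p of 0.05 in 0 of 7, beside 4.07%. The difference between the groups in any of these coefficients was not tested. All shares of a boar have the same denominator.

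**Figure D5:**
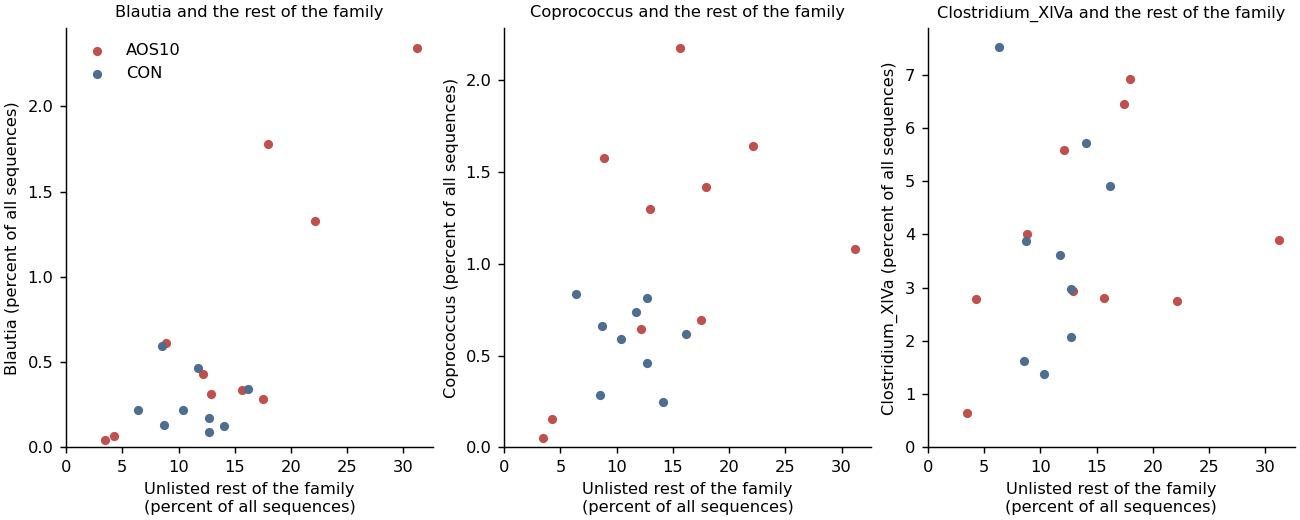
Relative abundance of *Blautia* (left), *Coprococcus* (middle) and *Clostridium_XlVa* (right) against the unlisted rest of *Lachnospiraceae*, all in percent of all sequences, 1 point per boar, AOS10 in red and CON in blue. *Blautia* is highest in the AOS10 boars with the most of the rest (rho = 0.76 in AOS10, -0.32 in CON).

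When the genera were taken as shares of the family, *Clostridium_XlVa* and the unlisted rest had a rho of -0.85 in AOS10 (permutation p = 0.00287, adjusted p = 0.153) and -0.97 in CON (exact permutation p = 0.000165, adjusted p = 0.0284). The 2 make up most of the same whole, so a coefficient near -1 is built into this measure.

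The families whose ranks, centred within the groups, followed *Lachnospiraceae* most closely over the 19 boars were *Coriobacteriaceae* (rho = 0.64), *Erysipelotrichaceae* (rho = 0.48) and *Streptococcaceae* (rho = 0.23), out of 14 compared. By the same measure over 17 other genera, *Coprococcus* and *Blautia* were nearest to each other (rho = 0.61), followed by *Clostridium_sensu_stricto* for *Coprococcus* (rho = 0.54) and *Butyricicoccus* for *Blautia* (rho = 0.52). *Clostridium_XlVa* had no close partner, with *Intestinimonas* (rho = 0.43) and *Oscillibacter* (rho = 0.41) nearest. For *Coprococcus_comes* they were *Clostridium_moniliforme* (rho = 0.49) and *Intestinimonas_butyriciproducens* (rho = 0.48), out of 12 species. These coefficients are descriptions over boars that share a denominator within each profile.

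Relatives outside the family did not pass the adjusted threshold either. Of 13 other families of *Clostridiales* looked for, the table listed 3 under these names, *Ruminococcaceae*, *Eubacteriaceae* and *Peptostreptococcaceae*. All 3 had a lower mean in AOS10, where 46.7% of the 15 families had a higher one. None passed the exact permutation test, and their median ratio was 0.874, beside 0.989 over the 15 families. Listed under names not looked for were *Clostridiaceae* (ratio 0.643) and a family row named *Clostridiales* (ratio 2.68), and neither passed. In AOS10 boar 3, the boar with 54.4% *Murdochiella*, the row named *Clostridiales* held 55.5% of all sequences. It held 0.781% to 3.91% in the other AOS10 boars and 1.36% to 8.85% in CON boars, so its ratio rests on boar 3. Of 9 genera of other families looked for as including butyrate producers, 4 were listed. *Butyricicoccus* and *Intestinimonas* had a higher mean in AOS10, and *Eubacterium* and *Oscillibacter* a lower one, none with an adjusted p under 0.05 (median ratio 1.04, beside 1.02 over the 18 genera). Most *Eubacterium* was *Eubacterium_coprostanoligenes* (means of 2.16% beside 2.49% in AOS10 boars and 2.57% beside 2.85% in CON boars). Whether the sequences of these 4 genera came from butyrate producers was not tested. *Oscillibacter*, with 3.56% ± 1.78 in AOS10 boars (SD, n = 10) and 6.40% ± 3.03 in CON boars (SD, n = 9), had the only unadjusted exact permutation p under 0.05 in the genus table (p = 0.0222, adjusted p = 0.399). Plastid sequences of the feed, looked for under 4 names, were not listed.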

How the data were processed

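Feces of 19 boars were analysed. The authors amplified part of the 16S rRNA gene, merged paired reads in FLASH, used QIIME for quality filtering, discarded chimeras, grouped them into operational taxonomic units (the methods name Greengenes for classification) and normalized their numbers to the smallest sample. The deposited values are fractions of a sample's sequences, in 6 stacked tables that each add up to 1 with a remainder of unlisted taxa. All 19 columns were matched to a boar by name. Normalizing to 1 total removes depth. Rare taxa carry more counting error relative to their share. No interval is given for this error, since the tables state no counts and none were inferred from the fractions.

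Fractions were multiplied to percent. For every taxon above 0 in at least 5 boars (15 families, 18 genera, 13 species), group means were compared by a two-sided exact permutation test over 92378 splits, with Benjamini-Hochberg adjustment within the table and a threshold of 0.05. The makeup of the family and of *Coprococcus* was compared per boar in the same way, unadjusted over 6 comparisons. Neighbours in the order of genera were compared by two-sided exact sign-flip tests within boars. Spread was compared by permuting the absolute deviations from the group median over the same splits. Spearman's rho and Pearson's r were computed within groups over 172 relations, with 100000 permutations in AOS10 and all 362880 orders in CON. Each was repeated without the 2 boars farthest from the median of its first measure, which differ by relation (the rest before any genus, *Coprococcus* before the other genera, *Blautia* before *Clostridium_XlVa*, the species before the rest of its genus).

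The alternative on the log2 scale used limma 3.58.1 in R 4.3.3 with 0.01 percent added. Other steps were run with pandas 2.3.3, scipy 1.17.1 and numpy 2.4.6 under Python 3.11.15. The mean test and its adjustment were tested on simulated data. For the correlations, the exact permutation p of Spearman's rho was computed for a single simulated pair of measures and compared with scipy. The sampled permutations used in AOS10 were not tested in this way. Other alternatives changed the summary, the scale, the pseudocount (0.1 and 0.001), the filter, the denominator and the set of boars.

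The members and lists were chosen with earlier results of these data known. Taxa named beside the members were the nearest by rho on centred ranks (3 families, 2 genera or 2 species). Also named were the neighbours of the family in mean share and taxa that set a boar's denominator. Fixed lists gave further names (other genera and species of the family, other families of *Clostridiales*, genera of other families with butyrate producers, plastid sequences). The numbers in the labels were taken as names of boars, since the sources used here describe no pairing. In 4 of 9 same-numbered pairs the profile deviations correlated over 0.1 (range -0.433 to 0.493). This cannot exclude a pairing, because paired boars need not have like profiles. The closest pair of genus profiles, with the unlisted remainder included, had a Bray-Curtis distance of 0.0902, so none were identical. Repeated sampling of the same boar was not tested. Sequencing batches are not given in the sources used here.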

Additional observations from a re-analysis of the deposited data

Results flagged for a closer look

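In 4 of the 26 sets of boars checked, 1 boar lay far from the others of its group relative to the group's range. If values are normally distributed, chance gives such a gap in about 1 in 20 groups of this size. That was not checked for these shares, and the sets overlap, so they are not independent of each other. All 4 sets were in CON. *Clostridium_XlVa* made up 50.4% of *Lachnospiraceae* in CON boar 7, with the next CON boar at 29.0%, and the 3 listed genera together made up 57.5% there, with the next at 34.9%. *Blautia* made up 5.40% of the family in CON boar 2, with the next at 2.80%. These were the CON boars with the most *Bacteroidetes* (18.3% and 33.4%), and a link was not tested. *Coprococcus* other than *Coprococcus_comes* held 0.134% in CON boar 1, with the next CON boar at 0.0792%. Without CON boar 1 the difference in this remainder was 0.0902 percentage points (exact permutation p = 0.0115).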

How the results depend on the processing

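Differences are AOS10 minus CON in percentage points. Shares of *Lachnospiraceae*, *Coprococcus*, *Blautia* and *Coprococcus_comes* kept their direction and failed the adjusted threshold under all 9 alternatives and without any single boar. Their lowest unadjusted p among the 9 alternatives was 0.156, 0.0165, 0.0900 and 0.0419. No alternative gave a family, genus or species an adjusted p under 0.05. At an unadjusted p under 0.05, the genus table held 1 genus, and 0 by ranks, by limma with 0.01 or 0.001 percent added and with a replicate block, 3 by medians and 2 with *Murdochiella* out of the denominator, and the species table held 0, and 2 by medians. *Clostridium_XlVa* differed by -0.202 by medians and by -0.206 to 0.603 without single boars. As percent of the family, *Coprococcus* differed by -0.225 by medians, and without single boars *Clostridium_XlVa* differed by -4.08 to 1.22, the 3 genera by -1.06 to 3.94 and the rest by -3.94 to 1.06. By the ratio of group sums, which has no test, the 3 genera differed by -0.905 and the rest by 0.905, against 0.363 and -0.363 by means of boars. *Coprococcus* other than *Coprococcus_comes* gave a log2 difference of 0.86 (exact permutation p = 0.0553) and 0.0695 with a replicate block (exact sign-flip p = 0.0586). Apart from the genus count at an unadjusted p, the block changed no other call, and the sources used here describe no pairing by number. *Lachnospiraceae* as percent of *Ruminococcaceae* differed by 18.9 to 35.3 without single boars (permutation p 0.0317 to 0.161). Alternatives for this ratio, this remainder and the spread were chosen after seeing the data.

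The difference in spread on the log2 scale was 0.43 for *Lachnospiraceae*, 0.65 for *Coprococcus*, 0.74 for *Coprococcus_comes* (permutation p 0.0762, 0.234 and 0.182) and 0.00191 for *Clostridium_XlVa*. Without single boars it was 3.86 to 5.81 for *Lachnospiraceae*, 0.260 to 0.473 for *Blautia* (permutation p 0.0332, 0.0301 and 0.0373 without AOS10 boar 1, 4 or 9) and -0.337 to 0.234 for *Clostridium_XlVa*.

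Several coefficients changed sign. For *Clostridium_XlVa* and the rest as shares of the family, a coefficient near -1 is built into the measure, as stated above. For the other changes the cause was not tested. As shares of the family, rho in AOS10 was -0.18 for *Coprococcus* and *Clostridium_XlVa*, -0.37 for *Blautia* and *Clostridium_XlVa*, -0.18 for *Coprococcus* and the rest, -0.85 for *Clostridium_XlVa* and the rest, 0.05 for *Blautia* and the rest (without a change of sign) and -0.030 for *Coprococcus_comes* and the other *Coprococcus*, and in CON -0.05 for *Coprococcus* and *Blautia*, 0.17 for *Blautia* and the rest and -0.97 for *Clostridium_XlVa* and the rest. Without the 2 boars farthest from the median of the first-named member, *Coprococcus* and *Clostridium_XlVa* in AOS10 had a rho of -0.60 (r = -0.61; boars 3 and 7 left out), *Coprococcus_comes* and the other *Coprococcus* an r of -0.012 in AOS10 (boars 3 and 4) and a rho of -0.11 (r = -0.41) in CON (boars 2 and 4), and *Blautia* and *Clostridium_XlVa* in CON an r of 0.18 (boars 2 and 5). In CON, r was -0.14 on shares and -0.000119 on log2 values for *Coprococcus* and *Blautia*, -0.064 and -0.033 for *Clostridium_XlVa* and the rest, and -0.081 and -0.052 for *Coprococcus_comes* and the other *Coprococcus*. Without single boars, rho was -0.23 to 0.33 for *Coprococcus* and *Clostridium_XlVa* and -0.17 to 0.30 for *Coprococcus_comes* and the other *Coprococcus* in AOS10, and in CON -0.19 to 0.45 for *Coprococcus* and *Blautia*, -0.10 to 0.57 for *Coprococcus* and *Clostridium_XlVa*, -0.024 to 0.62 for *Clostridium_XlVa* and the rest and -0.12 to 0.29 for *Coprococcus_comes* and the other *Coprococcus*. Depth is taken as unknown, so no counting error of the rarest shares is given.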

Other observations

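The balance of *Coprococcus* to *Blautia*, a butyrate-forming against an acetate-forming genus, was wide in both groups. The ratio ran from 0.461 to 6.42 in AOS10 boars (median 1.92) and from 0.479 to 5.14 in CON boars (median 2.67), with means of 2.31 ± 1.80 among AOS10 boars (SD, n = 10) and 3.01 ± 1.70 among CON boars (SD, n = 9; exact permutation p = 0.393). The highest value was that of AOS10 boar 4, which held the most *Coprococcus* of all boars (2.18%) beside 0.339% *Blautia*, and the lowest was that of AOS10 boar 10, which held the most *Blautia* (2.34%) beside 1.08% *Coprococcus*. The boar richest in each genus was thus a different one, while both boars belonged to AOS10.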
